A study of Mus musculus with 6 samples.

Results

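Histone genes were examined in 6 RNA-seq libraries of MIN6, a mouse insulinoma line used as a model of pancreatic beta cells. The members are the protein-coding genes of the deposited table whose names begin with Hist1h to Hist4h, H2af, H3f or H1f, which gave 82 of 54532 genes. Of these, 67 lie in the Hist clusters and 15 are variant histone genes outside them. The rule uses the gene's name and biotype alone. The 3 control libraries, shc 1 to 3, carry the genotype label control. The 3 libraries sh2 1 to 3 carry the label PP2Ac knockdown and are called knockdown here. PP2Ac is the catalytic subunit of protein phosphatase 2A, whose alpha isoform is encoded by Ppp2ca. The extraction protocol speaks of frozen tissues, although the samples are labelled as a cell line. The labels give no dose, time, vector or clone, name a single knockdown series, and do not say that the libraries of a group came from separate cultures, so p-values measure the spread between these libraries, which may be technical.

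Replication-dependent histone genes supply the bulk of H1, H2A, H2B, H3 and H4 during S phase. As a rule they have no introns, although the annotated models of some members, Hist1h2bc among them, are spliced. They are transcribed together with the help of NPAT, and their mRNAs normally end in a 3′ stem-loop bound by SLBP in place of a poly(A) tail. Variant histones such as H2A.Z, H3.3 and macroH2A are made throughout the cell cycle from genes outside the clusters, with polyadenylated mRNAs, and are placed by dedicated chaperones. The labels name total RNA and an Illumina TruSeq RNA kit. Whether poly(A) RNA was selected is not given in the sources used here, and its part in the low levels of Hist genes was not tested.

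Recovered reads came to 14614737 to 16030939 per library, and 21421 to 21690 genes had a read in control libraries against 19560 to 19960 in knockdown libraries. Ppp2ca had 42.5, 34.6 and 35.6 FPKM (reads scaled for gene length and library depth) in control and 10.1, 11.4 and 10.9 in knockdown, a log2 fold change of -1.70 with an adjusted p of 5.35e-06 by limma. Of 10 beta cell markers, 8 had a mean FPKM below 1 and 5, Ins1 and Ins2 among them, had no read in any library, which goes against the labelled cell type. The other 2, Mafa and Pdx1, were called higher (log2 fold changes 1.08 and 0.90), and the list summed to 2.91 to 4.7 FPKM in control and 8.16 to 9.78 in knockdown. All 5 fibroblast markers were called higher, with sums of 413 to 471 and 999 to 1139 FPKM, mostly Vim. Of these, Pdgfra and Col3a1 reached a mean of 1 FPKM only through their knockdown libraries (control means 0.734 and 0.834). The 4 duct markers summed to 681 to 849 and 352 to 391, nearly all Spp1, with Krt19 and Cftr near 0. Spp1 and Sox9 were called lower (log2 fold changes -1.03 and -1.77). Of the 4 immune markers Cd68 alone was above the filter, at 14.3 to 20.9 FPKM in control and 2.01 to 2.61 in knockdown, and Adgre1 and Cd3e were at 0. Of the 4 acinar markers Cela1 alone was above it, only through its knockdown libraries, and was called higher. The endothelial and the alpha, delta and PP cell markers were all below the filter. The part of these differences in the histone results was not tested. In bulk libraries, fewer cells of a type and less RNA per cell cannot be told apart.

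The 3′ stem-loop is shown first because it is the element that sets Hist mRNAs apart from the others. It was searched as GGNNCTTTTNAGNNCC, on the transcript strand, in the longest coding transcript of each gene in the GENCODE M21 annotation. The sequences below are the matches in the called Hist genes that hold one, in the most abundant Hist gene and in the variant gene that holds one. The 16 bases of the motif are in capitals, with 5 bases on each side.
Hist1h4i: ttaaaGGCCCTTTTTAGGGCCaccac
Hist1h4h: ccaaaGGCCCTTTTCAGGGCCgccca
Hist1h2bg: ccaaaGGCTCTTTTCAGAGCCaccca
Hist1h1c: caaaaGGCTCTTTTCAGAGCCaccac
H2afx: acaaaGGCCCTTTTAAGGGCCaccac
The motif was found in 43 of 67 Hist genes and in 1 of 15 variant genes, H2afx, which encodes the H2A form phosphorylated at DNA breaks and is known to be expressed both with the stem-loop and as a polyadenylated mRNA. No match says only that these letters are not in the annotated transcript, which may stop short of the stem-loop. In 22 of the 43 Hist genes the annotated transcript ran on for more than 100 bases after the stem-loop, and in 21 for at most 100.

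The promoters shown are those of the 3 called Hist genes with the smallest p, whatever their direction. Whether the motifs bear on the direction was not tested. Each line gives the 250 bases before the RefSeq start site (build GRCm38.p6) on the strand of the gene, with matches to 4 motifs in capitals. The motifs, searched on both strands, were the CCAAT box bound by NF-Y, the TATA box as TATAAA, the core of the H4 promoter element bound by HINFP as GGTCC, and the core of the octamer element known from H2B promoters as TTTGCAT. The matches do not overlap one another in the 3 windows shown.
Hist1h4i, chr13:22041363-22041612, minus strand: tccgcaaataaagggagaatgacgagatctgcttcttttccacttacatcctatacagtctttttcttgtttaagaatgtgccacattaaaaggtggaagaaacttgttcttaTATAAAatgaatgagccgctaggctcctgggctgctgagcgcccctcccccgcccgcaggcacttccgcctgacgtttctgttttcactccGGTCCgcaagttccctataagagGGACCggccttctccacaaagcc
Hist1h4h, chr13:23530794-23531043, plus strand: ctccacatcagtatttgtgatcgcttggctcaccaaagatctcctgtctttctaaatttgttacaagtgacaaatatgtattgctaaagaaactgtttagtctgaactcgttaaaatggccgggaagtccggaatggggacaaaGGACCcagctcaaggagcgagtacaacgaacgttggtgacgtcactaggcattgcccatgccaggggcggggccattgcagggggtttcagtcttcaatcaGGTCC
Hist1h2bg, chr13:23571150-23571399, plus strand: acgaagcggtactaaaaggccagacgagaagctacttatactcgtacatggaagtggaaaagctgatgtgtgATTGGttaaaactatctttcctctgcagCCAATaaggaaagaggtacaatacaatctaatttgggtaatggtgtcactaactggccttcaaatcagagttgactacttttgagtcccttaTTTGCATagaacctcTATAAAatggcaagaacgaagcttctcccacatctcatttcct
The Hist1h4i window held GGTCC 46 and 23 bases before the start and TATAAA 137 bases before it, and the Hist1h4h window held GGTCC 106 and 5 bases before the start. The Hist1h2bg window held CCAAT at 178 and 150, TTTGCAT at 58 and TATAAA at 43. RefSeq windows were matched for 74 of the 82 members, 61 Hist and 13 variant genes, under their present names. CCAAT was in 50 of the 61 Hist windows (82%), in 8 of 13 variant windows (61.5%) and in 34.5% of all 27025 promoters of the same length. TATAAA was in 28 Hist windows (45.9%), in 0 variant windows and in 13% of all, and TTTGCAT in 14 Hist windows (23%), in 0 variant windows and in 4.06% of all. GGTCC was no more frequent in Hist windows as a whole, 24 of 61 (39.3%) against 39.7% of all, but the families differed: it was in 11 of 12 H4 windows. CCAAT was in all 18 H2A and all 16 H2B windows and in 3 of 12 H4 windows. The windows of neighbouring H2A and H2B genes that run apart can overlap, so they are not independent. These matches are descriptions of the letters.

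Histone mRNA in these libraries came mostly from the variant genes. Their FPKM values summed to 957, 873 and 913 in control (915 ± 41.9, SD, n = 3) and 745, 790 and 791 in knockdown (775 ± 26.1). All knockdown sums were below all control sums. The fall lay mostly in H2afz (means 352 and 250 FPKM) and H3f3b (229 and 187). H3f3a was lower too and H1f0 was level, while H1fx, H2afy, H2afv and H2afx had higher means in knockdown. The difference in sums is thus not a fall of the whole class. The 67 Hist genes together summed to 88.9, 62.9 and 72.1 in control (74.7 ± 13.2) and 83.3, 87.2 and 74.4 in knockdown (81.6 ± 6.54), and the groups overlapped. The median Hist gene had a mean of 0.28 FPKM over the 6 libraries and the highest, Hist1h1c, 34.9, while the median variant gene had 7.3 and the highest, H2afz, 301. Of the Hist genes, 9 reached a mean of 1 FPKM, the minimum for a test, 44 had reads but stayed below it, and 14 had none in any library. Of the variant genes, 8 reached it, 3 had reads below it, and 4 (H1fnt, H2afb1, H2afb2 and H2afb3, which are known from the germline) had none.

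A gene was called where limma's adjusted p over all 11652 tested genes was below 0.05. Of these genes 62.4% were called, 33.3% higher and 29.1% lower in knockdown, and the 2 groups did not overlap in 68.1%. Against that background, 4 of 9 tested Hist genes were called, 2 higher and 2 lower, and 5 of 8 tested variant genes, 2 higher and 3 lower. The groups did not overlap in 4 of the 9 Hist genes and in 6 of the 8 variant genes. The median log2 fold change, on the log2(FPKM + 1) scale, was -0.06 over the tested Hist genes, 0.01 over the tested variant genes and 0.03 over all tested genes. No test set these shares against the background, and neither class moved in 1 direction. One of the higher Hist genes, Hist1h4h, passed the filter only through its knockdown libraries. Hist1h3i, which was not called, passed it only through its control libraries. With mitochondrial genes, rRNA and Gm23935 left out of the scaling, 1 variant gene was higher and 3 were lower. The tested members are those abundant enough to pass the filter and do not stand for the rest.

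**Figure D1:**
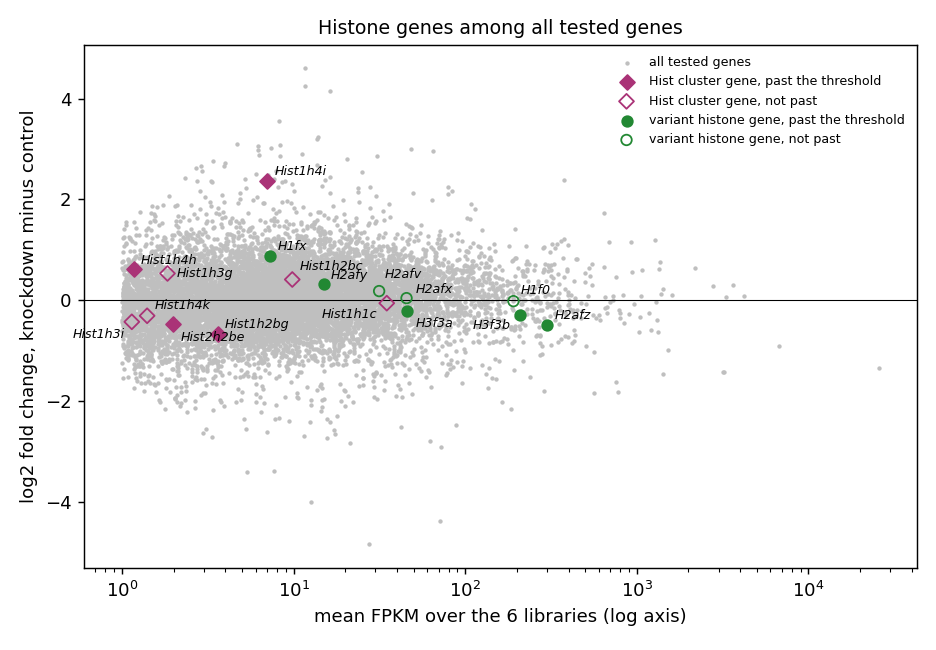
Log2 fold change (knockdown minus control) against the mean FPKM over the 6 libraries (log axis) for all 11652 tested genes (grey), 9 Hist genes (diamonds) and 8 variant genes (circles), filled where past the threshold. Hist1h4i stands at 2.37, while the other 16 histone genes lie between -0.67 and 0.88.

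Hist1h4i changed most among the members. It is an H4 gene of the Hist1 cluster (ENSMUSG00000060639, chromosome 13, 22040636 to 22041362, minus strand), and it encodes the same H4 protein as the other cluster H4 genes. It had 1.29, 1.68 and 1.84 FPKM in control (1.61 ± 0.285) and 11.5, 12.8 and 13.2 in knockdown (12.5 ± 0.882). Every knockdown library was several times above every control library, on 15, 19 and 22 reads against 129, 142 and 143. The ratio of means was 7.76, and limma gave a log2 fold change of 2.37 (SE 0.102, adjusted p = 2.32e-06). By size of rise it ranked 37 among the 11652 tested genes.

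The other 12 H4 genes together had 59, 60 and 34 reads in control and 44, 47 and 37 in knockdown, and the groups overlapped. Hist1h4i made up 20.3%, 24.1% and 39.3% of all H4 reads in control and 74.6%, 75.1% and 79.4% in knockdown. The summed FPKM of all 13 H4 genes was 6.79 ± 1.72 in control and 17.6 ± 0.737 in knockdown. Its nearest histone neighbours stayed near 0: Hist1h2ag, 1098 bases away, had no reads in any library, Hist1h2bj went from a mean of 0.0439 FPKM to 0, Hist1h2bk from 0.178 to 0.276, and Hist1h2ah from 0.0501 to 0.321. No annotated gene overlaps Hist1h4i. Of the 50-base words of Hist1h4i 28.9% also occur in transcripts of 11 other genes, so reads from those stretches could have been split or lost by the counting. That limit is larger for the neighbours: 78.9% for Hist1h2ag, 59.4% for Hist1h2bj, 74.2% for Hist1h2bk and 92.1% for Hist1h2ah. Among the other H4 genes it ran from 1.01% (Hist2h4) to 89.8% (Hist1h4m). The low values of the neighbours and the H4 shares are uncertain to that extent.

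**Figure D2:**
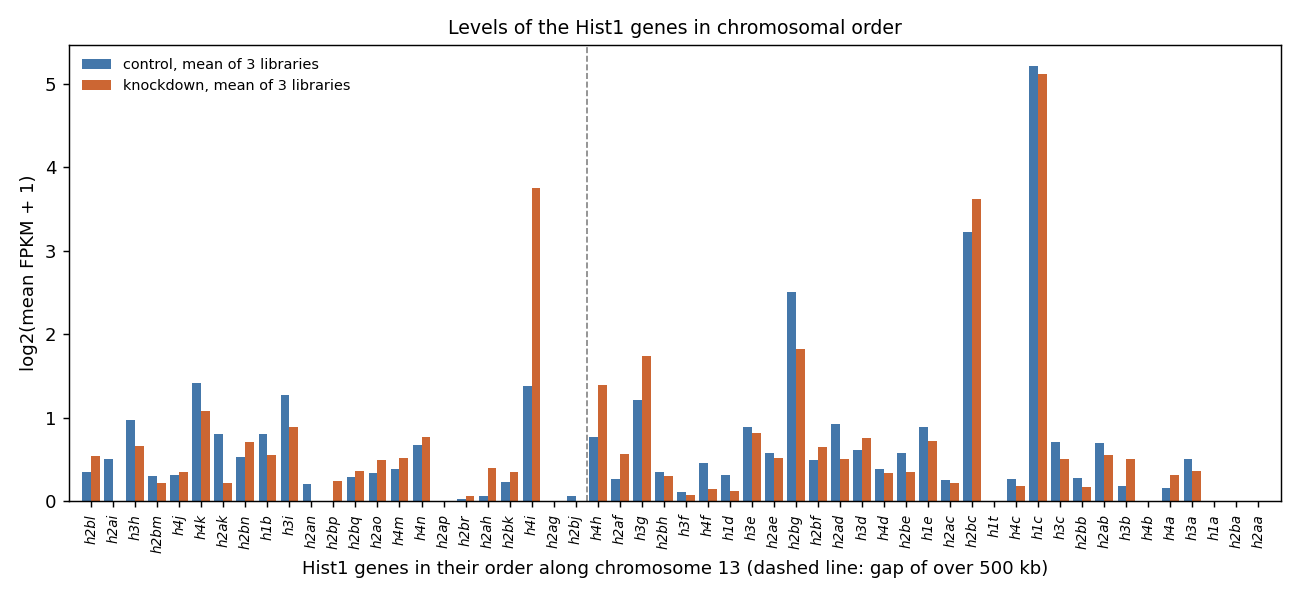
Mean level, log2(mean FPKM + 1), of the 54 Hist1 genes in their order along chromosome 13 (names without the prefix Hist1), control and knockdown side by side, each the mean of 3 libraries. Most bars stay low, the tallest pair is Hist1h1c, and Hist1h4i, near the end of the first group of 23 genes, has a knockdown bar far above its control bar while its neighbours do not.

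Hist1h4h, another H4 gene of the cluster, had 0.798, 0.823 and 0.518 FPKM in control and 1.93, 1.11 and 1.85 in knockdown. The groups did not overlap, but the values rest on 4 to 6 reads against 8 to 14, and the gene passed the filter only through its knockdown libraries. The log2 fold change was 0.61 (SE 0.164, adjusted p = 0.0118, limma). On recovered reads (limma's voom) it was 1.08 and the call was lost (adjusted p = 0.0658). Hist1h4k, the third tested H4 gene, had 1.8, 2.27 and 0.976 FPKM in control and 1.04, 1.05 and 1.29 in knockdown, overlapping groups, with a log2 fold change of -0.31 (adjusted p = 0.181, limma). Without control library 3 it was -0.51 and past the threshold (adjusted p = 0.0151, range over alternatives 0.00518 to 0.506).

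Of the 3 tested H2B genes, 2 fell. Hist1h2bg had 3.54, 4.8 and 5.72 FPKM in control (4.68 ± 1.09) and 3.03, 2.01 and 2.60 in knockdown (2.55 ± 0.516). Each knockdown library was below each control library, and the mean fell to 54.4% (log2 fold change -0.67, SE 0.162, adjusted p = 0.00696, limma). Hist2h2be, an H2B gene of the Hist2 cluster known to give a polyadenylated mRNA too, had 2.77, 2.21 and 2.42 FPKM in control and 2.02, 0.922 and 1.61 in knockdown. The log2 fold change was -0.48 (SE 0.17, adjusted p = 0.0356, limma). That call was lost without control library 1 or 3 and without knockdown library 2 or 3, with adjusted p of 0.0603 to 0.106. Hist1h2bc had 10.8, 6.97 and 7.32 FPKM in control and 10.8, 13.2 and 9.90 in knockdown. Control library 1 lies inside the knockdown range, and the gene was not past the threshold (log2 fold change 0.41, SE 0.159, adjusted p = 0.0522, limma). Without that library it was 0.58 (adjusted p = 0.00477, range over alternatives 0.00477 to 0.215). Of the 50-base words of Hist1h2bg 49.7% occur in 14 other genes, and of those of Hist1h2bc 30.6% in 220, while Hist2h2be shares none.

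Hist1h1c, which encodes the linker histone H1.2, is the most abundant Hist gene. It had 47.4, 27.4 and 33.1 FPKM in control and 35.2, 37.9 and 28.3 in knockdown. Control library 1 was the highest of the 6, the others overlapped, and the fold change was -0.06 (SE 0.189, adjusted p = 0.796, limma, log2). The H3 genes Hist1h3g and Hist1h3i were low. Hist1h3g had 1.42, 0.73 and 1.84 FPKM in control and 3.17, 2.22 and 1.64 in knockdown, overlapping, with a log2 fold change of 0.53 (adjusted p = 0.0666, limma). It was past the threshold at 0.68 without control library 3 or without knockdown library 3 (adjusted p = 0.0301 and 0.0386, range over alternatives 0.027 to 0.764). Hist1h3i had 0.608, 1.57 and 2.07 against 1.1, 0 and 1.47 FPKM, also overlapping (log2 fold change -0.43, adjusted p = 0.325, limma). It passed the filter only through its control libraries (means 1.42 and 0.856).

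**Figure D3:**
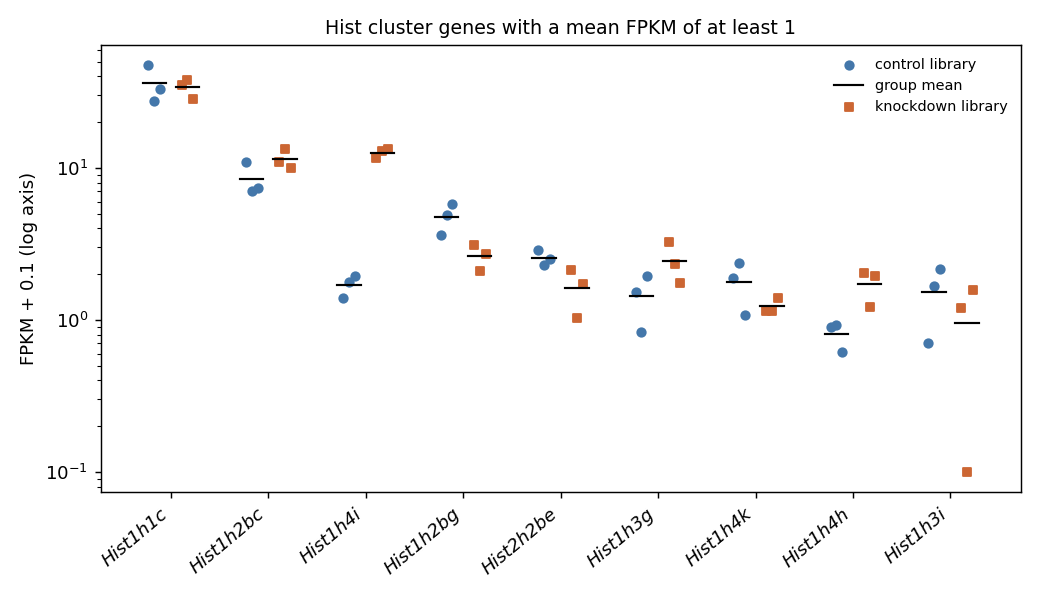
FPKM + 0.1 (log axis) of the 9 tested Hist genes in each of the 3 control (circles) and 3 knockdown libraries (squares), with group means as lines. The Hist1h4i groups are far apart, those of Hist1h1c overlap, and the 1 point at the bottom is the knockdown library in which Hist1h3i had no read.

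None of the 18 Hist H2A genes passed the filter. Their summed FPKM was 4.73, 4.33 and 5.72 in control and 3.91, 3.66 and 3.01 in knockdown, on 38 to 58 reads per library, and every knockdown sum was below every control sum. Over all 58 Hist genes below the filter the reads came to 316, 220 and 268 in control and 181, 231 and 183 in knockdown, and the groups overlapped. Among the 44 of these with reads, 39 had overlapping groups, 4 were lower and 1 was higher in every knockdown library. Of all 15346 genes below the filter with reads, 14.3% were lower and 7.81% higher in that way. Hist1h1d, Hist1h2ad, Hist1h2be and Hist2h4 were the 4 lower genes. Hist1h4a was the higher one, on 1 read in each control library and 1 to 3 in each knockdown library. Hist1h1d, which encodes H1.3, had 40, 20 and 28 reads in control and 8, 15 and 8 in knockdown. These genes have no test.

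Hist reads were also summed by the length of annotated transcript after the stem-loop. The 22 genes with more than 100 bases after it held 72.7% to 76.4% of Hist reads in each library. The 21 genes with at most 100 bases held 2.71% to 4.52%, and the 24 with no match 20.2% to 23.1%. Hist1h1c alone held 51.4% to 62.4% of Hist reads. Without it the first set held 37.2% to 45.2%, the second 6.35% to 10.1% and the genes with no match 47.5% to 53.7%, so the order of the first and the last rests on that gene. Read sums also grow with transcript length. Hist1h1c, with 840 bases after the stem-loop, Hist1h4i, with 330, and Hist1h2bg, with 155, belong to the first set, and Hist1h4h, with 46, to the second. Each of these shares overlapped between control and knockdown. Sequence copies limit the reading of the low genes: a median of 54.1% of the 50-base words of a Hist gene occur in another gene, against 8.4% for a variant gene. For the 14 Hist genes with no read the median was 77.4%. In 5 of them every word is shared, and in 2 none is.

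Variant H2A genes moved in different directions. H2afz, which encodes H2A.Z.1, a variant found beside transcription start sites, had 377, 340 and 338 FPKM in control and 229, 257 and 263 in knockdown. The groups were well apart, and knockdown stood at 70.9% of control (log2 fold change -0.49, SE 0.085, adjusted p = 0.00123, limma). Of its 50-base words 63.8% occur in 6 other genes, so its level is uncertain. H2afv, which encodes the near-identical H2A.Z.2, had 28.7, 30.4 and 29.1 FPKM in control and 33.8, 36.0 and 30.7 in knockdown. Its groups did not overlap, yet it was not past the threshold (0.18, SE 0.0753, adjusted p = 0.0641, limma, log2). Without knockdown library 3 it was (0.24, adjusted p = 0.0233, range over alternatives 0.0233 to 0.8). H2afz gave 92.3% ± 0.578 of the summed H2A.Z FPKM in control and 88.1% ± 1.26 in knockdown, with no overlap between the libraries.

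H2afy, which encodes macroH2A1, a variant with a large extra domain that is linked to silent chromatin, had 12.8, 14.1 and 12.8 FPKM in control and 16.6, 16.8 and 16.7 in knockdown. It was higher in every knockdown library (log2 fold change 0.32, SE 0.0668, adjusted p = 0.0035, limma). With mitochondrial genes, rRNA and Gm23935 left out of the scaling it was 0.17 and not past the threshold (adjusted p = 0.0722), where the median of all tested genes moved by -0.14. H2afy2, which encodes macroH2A2, was below the filter, with 13, 17 and 18 reads in control and 10, 5 and 6 in knockdown. H2afx had 43.0, 44.1 and 47.2 FPKM in control and 47.9, 48.2 and 42.4 in knockdown, overlapping, with a log2 fold change of 0.04 (adjusted p = 0.652, limma) whose sign turned under 3 other scalings.

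Both H3.3 genes, H3f3a and H3f3b, were lower in knockdown, but neither call held with the GC trend of all genes removed (-0.04 for H3f3b and 0.05 for H3f3a). They encode the same protein, which replaces H3 outside replication. H3f3b had 245, 211 and 230 FPKM in control and 186, 180 and 195 in knockdown, with no overlap (log2 fold change -0.29, SE 0.0788, adjusted p = 0.0125, limma). H3f3a had 51.6, 45.3 and 50.4 in control and 43.7, 41.4 and 41.6 in knockdown, again with no overlap (-0.21, SE 0.0722, adjusted p = 0.032, limma, log2). The H3f3a call was lost on leaving out control library 1 or 3 or any single knockdown library (adjusted p = 0.0521 to 0.0971). H3f3b gave 82.3% ± 0.297 of their summed FPKM in control and 81.6% ± 0.765 in knockdown. Of the 50-base words of H3f3a 29.2% occur in 42 other genes, against 8.4% in 3 other genes for H3f3b.

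The linker histone variants differed from each other. H1fx, which encodes H1.10, had 4.73, 5.51 and 4.25 FPKM in control (4.83 ± 0.634) and 9.46, 11.5 and 8.31 in knockdown (9.77 ± 1.64). Every knockdown library was above every control library, with a ratio of means of 2.02 (log2 fold change 0.88, SE 0.125, adjusted p = 0.000444, limma). H1f0, which encodes H1.0, a linker histone that accumulates in differentiated and resting cells, had 194, 182 and 201 FPKM in control and 179, 198 and 193 in knockdown. The groups overlapped (-0.02, SE 0.0751, adjusted p = 0.848, limma, log2). In FPKM, H1f0 stood several times above Hist1h1c, the highest cluster H1 gene. Whether poly(A) RNA was selected is not given, and its part in this difference was not tested.

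**Figure D4:**
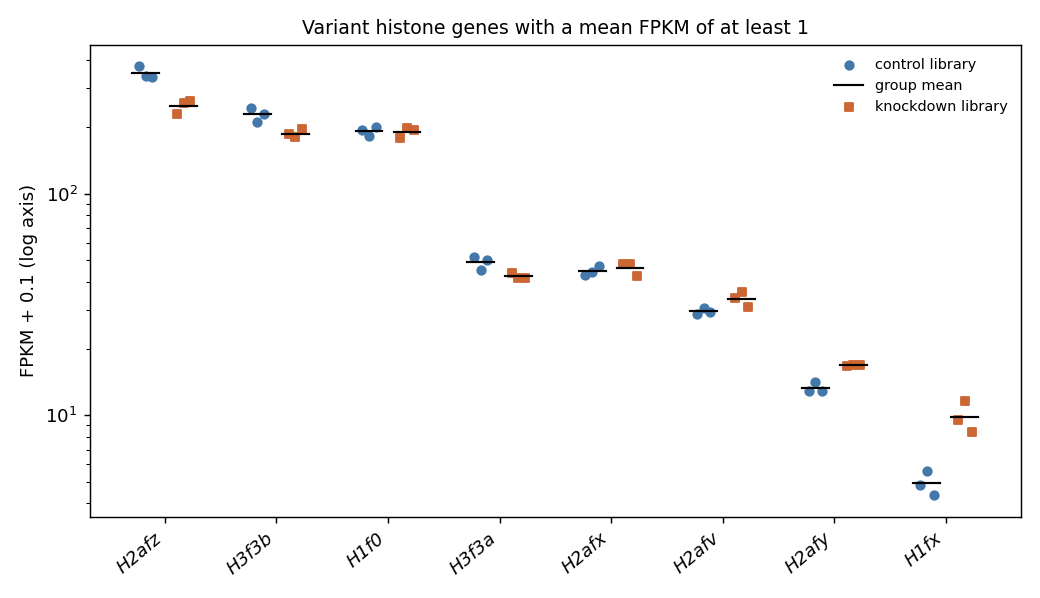
FPKM + 0.1 (log axis) of the 8 tested variant histone genes in each of the 3 control (circles) and 3 knockdown libraries (squares), with group means as lines. H2afz, H3f3b and H3f3a lie lower in knockdown, H1fx, H2afy and H2afv higher, and H1f0 and H2afx overlap.

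Fold changes went with base composition over all tested genes, which bears on several members. Across 11635 genes Spearman's rho between the log2 fold change and the GC content of the longest transcript was 0.45, and with gene length -0.04; genes are not independent replicates. In 5 equal bins of genes from lowest to highest GC, the median log2 fold change was -0.38, -0.10, 0.07, 0.21 and 0.33. H3f3a (43.2% GC) and H3f3b (43.4%) lie in the lowest bin, where their -0.21 and -0.29 are above the median. H1fx (71.3%) lies in the highest. With the GC trend removed, H3f3b was at -0.04 (adjusted p = 0.536, range over alternatives 0.000936 to 0.568) and H3f3a at 0.05 (adjusted p = 0.515, range 0.00363 to 0.524), and neither was called.

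The other calls took 2 courses in that fit. Hist1h4i (2.17), H2afz (-0.52), H1fx (0.35), H2afy (0.17) and Hist1h2bg (-0.91) were called in the same direction. Hist1h4h (0.28) and Hist2h2be (-0.35) were not called. The genes H2afx (-0.41), H1f0 (-0.20), Hist1h4k (-0.81), H2afv (0.22) and Hist1h2bc (0.50), not called before, passed the threshold, so their main values depend on this choice. It gave 4 called Hist genes and 6 called variant genes.

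**Figure D5:**
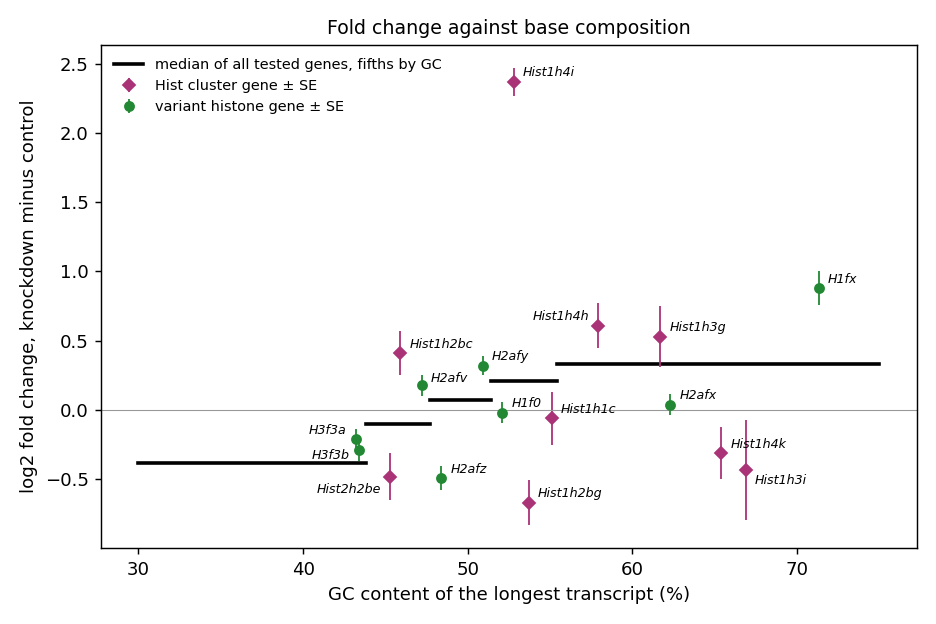
Log2 fold change (knockdown minus control, ± SE) of the 9 Hist and 8 variant genes against the GC content of the longest transcript, with the median of all tested genes in 5 equal bins by GC as black lines, the outer lines shortened. The medians climb from -0.38 to 0.33, and Hist1h4i lies far above them. Hist1h2bg, H2afz, Hist1h3i, Hist1h4k and Hist2h2be are among the genes below.

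Genes that make and end histone mRNA were called at about the share of all genes. Of 19 listed, 18 were in the table and 17 tested, with 5 higher, 5 lower, 7 not past the threshold and a median log2 fold change of -0.06. The split was 2 higher and 8 lower with mitochondrial genes, rRNA and Gm23935 left out of the scaling, and 4 and 7 on protein-coding genes only. Npat, the cyclin E-CDK2 substrate that activates Hist promoters, had 6.52, 5.62 and 7.35 FPKM in control and 3.60, 3.85 and 4.54 in knockdown, with no overlap (-0.58, adjusted p = 0.00204, limma). With the GC trend removed it was -0.17 and not called. Casp8ap2 (FLASH), which works beside NPAT and in 3′ end cleavage, had 4.94, 4.42 and 5.75 in control and 2.54, 2.09 and 3.10 in knockdown (-0.76, adjusted p = 0.00112, limma). It was lower in every knockdown library, and stood at -0.38 and called with the GC trend removed. Slbp, the stem-loop binding protein, had 16, 13 and 14.9 FPKM in control and 14.4, 13.1 and 14.5 in knockdown, with overlapping groups (-0.06, adjusted p = 0.602, limma). Nfyc, a subunit of the CCAAT-binding factor NF-Y, was higher (0.43, adjusted p = 0.000502, limma), and so was Srrt, a cap-complex partner (0.33, adjusted p = 0.00359), which was at 0.05 and not called with the GC trend removed. Hinfp, which binds H4 promoters, was lower (-0.34, adjusted p = 0.00379, limma), as was Pou2f1, the octamer factor Oct-1 (-0.51, adjusted p = 0.00477), which was at -0.28 and not called with the GC trend removed.

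Of 29 listed histone chaperones and deposition factors, 28 were tested, with 16 called against 62.4% of all genes, 7 higher, 9 lower, 12 not past the threshold and a median log2 fold change of -0.04. The split was 4 higher and 14 lower with mitochondrial genes, rRNA and Gm23935 left out of the scaling, and 5 and 13 on protein-coding genes only. The partners that place H3.3 at silent repeats moved apart. Daxx had 10.3, 13.3 and 12.3 FPKM in control and 20.4, 21 and 19.8 in knockdown (0.73, adjusted p = 0.00025, limma), while Atrx had 3.57, 3.53 and 4.54 against 1.75, 1.59 and 2.37 (-0.75, adjusted p = 0.00139). Neither overlapped between groups. Nasp, which holds H3-H4, and Npm1, which binds H2A-H2B and H3-H4, were lower (-0.64 and -0.71, adjusted p = 0.000275 and 0.000138, limma), and Tonsl, which binds new H4 at forks, was higher (0.67, adjusted p = 0.000242). Hjurp, the chaperone of the centromeric H3 variant, was higher too (0.60, adjusted p = 0.00169, limma). With the GC trend removed these were called at smaller values, Daxx at 0.43, Atrx at -0.30, Nasp at -0.16, Npm1 at -0.41 and Tonsl at 0.35. Hira, the H3.3 chaperone of active genes, and Chaf1a, the large CAF-1 subunit that places H3.1 at forks, were each at 0.26 (adjusted p = 0.0258 and 0.0187, limma). In that fit they were at 0.02 and 0.06 and not called. The Hira call was also lost without control library 1, 2 or 3 or knockdown library 2 or 3 (adjusted p = 0.0501 to 0.0753), and the Chaf1a call without control library 1 or 2 or knockdown library 1 (0.0601 to 0.0643).

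All 28 listed S phase genes were tested, with 19 called against 62.4% of all genes, 11 higher, 8 lower, 9 not past the threshold and a median log2 fold change of 0.12. The split was 7 higher and 9 lower with mitochondrial genes, rRNA and Gm23935 left out of the scaling. Of the 6 with the smallest p, which were picked from these same data, 5 were called higher and 1 lower. They do not stand for the list, which split 11 to 8. The higher ones were Gins2, of the replicative helicase (0.79, adjusted p = 4.40e-05, limma), Lig1, the replicative ligase (0.69, 9.57e-05), Ccne1, cyclin E1 (0.63, 0.000101), Ccna2, cyclin A2 (0.70, 0.000164), and Rpa2, of the single-strand binding complex (0.51, 0.000289). The lower one was Ccne2, cyclin E2 (-0.89, adjusted p = 0.000225, limma), which was at -0.27 and called with the GC trend removed. Pcna, the sliding clamp, had 162, 134 and 150 FPKM in control and 114, 116 and 116 in knockdown, all lower (-0.35, adjusted p = 0.00557, limma), and was at -0.22 and called with the GC trend removed. Cenpa, the centromeric H3 variant whose name falls outside the rule, had 10.1, 15.1 and 12.1 FPKM in control and 19.2, 20.1 and 19.6 in knockdown, with no overlap (0.64, SE 0.123, adjusted p = 0.00224, limma, log2).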

How the data were processed

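RNA-seq of 6 MIN6 libraries, 3 control and 3 knockdown by their genotype labels, was used. The authors deposited 1 table of FPKM values per gene with name, position and biotype. The builds are GRCm38 and mm10, per the submitters' processing notes. Which aligner and counter were used, and whether strand was read, is not given in the sources used here. The counting may therefore have divided or dropped reads of copies and of overlapping genes. Among the tested members, annotated genes overlap H1f0, H1fx, H2afx, H2afy and H3f3a. The highest of these were Gm47071 at H2afy (means 1.29 and 0.932 FPKM in control and knockdown) and Gm17275 at H3f3a (1.25 and 0.712).

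FPKM times gene length came in whole multiples of 1 step in 100% of values above 0, within 0.01, which gave the reads per gene. The filter was a mean of at least 1 FPKM over all 6 libraries. The test was run on log2(FPKM + 1) values with limma 3.58.1 (lmFit, eBayes with a trend) in R 4.3.3, with Benjamini-Hochberg adjustment over all 11652 genes and a threshold of 0.05. Fold changes are on that scale and understate those of low genes. No count model was the main test, because the table holds FPKM. limma's voom was run on the recovered reads, with TMM factors, as an alternative and called 7438 genes. Tables and motif searches were made in Python 3.11.15 with pandas 2.3.3. The fit was also run on simulated counts with few changed genes and no GC trend. Unlike these data in both respects, that run does not bear on the calls here.

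The members and gene lists were chosen with earlier results of these data known. Values in every library are given for tested variant genes that averaged 5 FPKM or more or were called, and for all tested Hist genes. Pathway genes are the 6 called members with the smallest p in each list, and Slbp, Npat, Casp8ap2, Hira, Daxx, Atrx, Chaf1a, Pcna and Cenpa in any case. Alternatives were another pseudocount, filter, variance model and scaling, recovered reads, a replicate block, leaving out each library, and, chosen after seeing the data, removal of the GC trend. Proteins were not used here.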

Additional observations from a re-analysis of the deposited data

How the results depend on the processing

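Hist1h4i, H2afz, H1fx and Hist1h2bg kept their direction and call in every alternative that tested them, with log2 fold changes of 2.17 to 2.90, -0.65 to -0.43, 0.35 to 1.00 and -0.91 to -0.54. So did Casp8ap2, Daxx, Atrx, Tonsl, Npm1, Nfyc, Hinfp, Hjurp, Gins2, Lig1, Ccne1, Ccna2, Rpa2 and Cenpa. Signs turned for genes near 0: with 1 library left out H1f0 turned to 0.02 (without control library 3) and 0.03 (without knockdown library 1), Hist1h1c to 0.15 (without control library 1, range over the fits with 1 library left out -0.23 to 0.15) and 0.06 (without knockdown library 3), and Slbp to 0.01 (without control library 1). H2afx turned to -0.00 with median-of-ratios scaling, -0.12 with mitochondrial genes, rRNA and Gm23935 removed, and -0.06 on protein-coding genes only. With the GC trend removed, with or without the replicate block, H2afx turned to -0.41, H3f3a to 0.05 and Slbp to 0.14. The cause was not tested.

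With a minimum mean FPKM of 5, fewer genes were tested, and 2 Hist genes and 6 genes of histone mRNA synthesis were called. With the GC trend removed and the replicate block, 5 of the latter were called, H2afy lost its call (adjusted p = 0.0529, range 0.00277 to 0.0722), and so did Nasp, Pcna and Ccne2. Leaving out 1 library at a time gave 3 to 5 called Hist genes, 4 to 5 variant genes, 8 to 10 genes of histone mRNA synthesis, 13 to 15 chaperones, 16 to 20 S phase genes and 6473 to 6949 genes in all. The split of calls was 3879 higher and 3388 lower in the main test, and 2835 and 4454 with mitochondrial genes, rRNA and Gm23935 removed, where the median of all genes shifted by -0.14.

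Deviations of same-numbered libraries correlated at -0.011, 0.159 and 0.052, and those of differently numbered libraries at -0.177 to 0.133. These values do not settle whether the libraries were paired. With the replicate block 7363 genes were called, with 4 Hist genes and 6 variant genes, the added one being H2afv (adjusted p = 0.0491, range 0.0233 to 0.8). Hist genes with 4 to 14 reads per library, such as Hist1h4h and Hist1h4k, are limited by counting, and the 58 below the filter were not tested in the main fit.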

Other observations

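Several processed pseudogenes that carry histone names lie outside the protein-coding rule and had reads; the 3 below were chosen after their values were seen. Hist1h2al had 7.56, 3.80 and 4.85 FPKM in control and 6.68, 8.09 and 7.31 in knockdown, above the sum of the 18 protein-coding Hist H2A genes in control library 1 and the 3 knockdown libraries, and was not past the threshold (log2 fold change 0.42, adjusted p = 0.0829, limma). H3f3c had 5.17, 3.92 and 1.78 FPKM in control and 2.20, 2.86 and 2.44 in knockdown, with overlapping groups (-0.33, adjusted p = 0.296, limma). H2afy3, named after macroH2A, had 0.731, 0.812 and 0.657 FPKM in control and 0.116, 0 and 0.0602 in knockdown, below the filter and lower in every knockdown library.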
